A study of Homo sapiens with 58 samples.

Results

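The genes described here encode the secreted side of WNT signalling and its receptors: WNT ligands, Frizzled (FZD) receptors, the co-receptors LRP5, LRP6, ROR1 and ROR2, the secreted inhibitors of the SFRP and DKK families with WIF1, and the pathway targets AXIN2 and LGR5. Every gene whose symbol belongs to these families was taken, by name alone, and measured with the probe set that names only that gene and has the highest mean over all lines. This gave 44 genes, 19 ligands, 10 Frizzled receptors, 4 co-receptors, 9 inhibitors and 2 targets, of 19798 genes with such a probe set.

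In the canonical branch of the pathway a WNT protein binds a Frizzled receptor together with LRP5 or LRP6, which spares beta-catenin (CTNNB1) from a destruction complex built on APC and the axins, so that it enters the nucleus and activates genes with TCF and LEF factors. Other ligands, WNT5A above all, act largely without beta-catenin, through Frizzled receptors with ROR1 or ROR2, and influence cell shape and movement. In the mammary gland WNT ligands direct branching and the upkeep of progenitor cells, and loss of secreted inhibitors is often described in breast tumours.

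The series holds 58 human lines with the cell type breast cancer, untreated, grown as its vendor recommends and read on 1 custom Affymetrix array from amplified, biotin-labelled total RNA. The labels give no subtype and define no groups, so the lines are described 1 by 1 and against continuous scores. By general knowledge, a breast tumour is not the reported source of MT3 or of MDAMB435S with its derivatives M4A4 and NM2C5, MCF102A, MCF12A, HMT3522S1 and SVCT are reported to be non-malignant, and HS362T, HS579MG, HS605T and HS739T (the 4 Hs lines) look like fibroblasts. Each line has a single array, so p-values below rest on the spread between lines, and the number of arrays limits the precision. Lines with a common origin (14 lines in 6 sets) were averaged, which left 50 units.

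Epithelial character was checked with 9 marker genes, and in 35 of 58 lines all 9 were above the array median. In the 4 Hs lines 1 to 3 of 9 were above it, while all 10 markers of stromal cells were, and the same 10 were above it in HS578T. MT3 had 7 of 8 intestinal markers above the array median, among them CDX2 at 11.03 and LGALS4 at 12.81, and the MDAMB435 set held melanocyte genes, with SOX10 at 11.65. The medians of the arrays ranged from 5.37 to 5.58 log2 units. MB157 and MDAMB157, reported to be the same tumour's cells, had profiles with a correlation of only 0.33 over detected genes, against 0.91 for NM2C5 and M4A4. HS605T and HS739T, which have no reported common origin, reached 0.91, and OCUBF and OCUBM 0.74.

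Sequence was looked at for part of the genes described here and for part of a list of further target genes of beta-catenin. The 250 bases upstream of the annotated start were searched for the 6-base core of the TCF and LEF site, CTTTGA, on both strands (TCAAAG on the other). The secreted inhibitor DKK1 and the target SP5 are printed because they alone, of the genes searched, held a match. Sequences are from RefSeq, build GRCh38.p14, and capitals mark the matches.
DKK1, chr10:52314031-52314280, plus strand: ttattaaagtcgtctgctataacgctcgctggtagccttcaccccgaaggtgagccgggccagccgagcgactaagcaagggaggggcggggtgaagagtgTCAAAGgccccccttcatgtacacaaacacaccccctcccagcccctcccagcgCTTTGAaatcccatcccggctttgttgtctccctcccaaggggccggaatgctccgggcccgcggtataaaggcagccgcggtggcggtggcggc
SP5, chr2:170715087-170715336, plus strand: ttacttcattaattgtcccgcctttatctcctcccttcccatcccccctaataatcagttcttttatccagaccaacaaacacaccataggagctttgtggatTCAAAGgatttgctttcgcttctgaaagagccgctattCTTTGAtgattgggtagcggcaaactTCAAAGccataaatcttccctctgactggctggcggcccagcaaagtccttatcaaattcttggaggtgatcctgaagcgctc
The DKK1 window held matches that begin 149 and 95 bases before the start, and the SP5 window held 3, at 147, 109 and 83 bases before it. Of 35116 RefSeq windows of this length 11.2% held at least 1 match, 0.98% at least 2 and 0.065% at least 3. A window was searched for 29 of the 44 genes, and DKK1 alone of these 29 held the core. The rest, DKK4, FZD3, FZD6, SFRP1 and AXIN2 among them, were not searched. Whether their windows hold the core was therefore not tested. Among 7 further target genes 4 were searched, and SP5 alone of these held the core. A match of letters is a description and does not show binding.

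Of the 44 genes, 36 were detected, meaning above the median of the array in at least 3 of the 50 units: 13 of 19 ligands, 10 of 10 Frizzled receptors, 4 of 4 co-receptors, 7 of 9 inhibitors and both targets. Over all genes 74% were detected. By the chosen probe set WNT1, WNT8A, WNT8B and WNT9B were above the array median in no line, while a second WNT9B probe set, which followed the chosen one weakly (Pearson r = 0.23 over 58 lines), reached 7.61 in DU4475 and was above it there alone. Another 4 genes were missed by the filter but stood out in single lines: DKK2 at 9.50 in HS362T, WNT2 at 7.47 in HS579MG, WNT16 at 7.31 in CAL120 and SFRP5 at 5.76 in SW527. A line had 2 to 10 of the 19 ligands above its array median (median 6), with the fewest in M4A4 and the most in HCC1806 and HCC1937. It had 6 to 9 of the 10 Frizzled receptors (median 8) and 0 to 6 of the 9 inhibitors (median 2). HS362T and HS739T had 6 inhibitors, and MFM223 and NM2C5 had none. Every line thus had several receptors, while ligands and inhibitors ranged from few or none to many. In such bulk profiles a low level in every cell and a high level in few cells cannot be told apart.

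Levels of these genes differed widely between lines. Of the 36 detected, 28 had an SD of at least 1 log2 unit across units, 9 ligands, 9 Frizzled receptors, 2 co-receptors, 6 inhibitors and both targets, against 34.2% of all detected genes. The median SD was 1.40 for these genes and 0.70 over all detected genes. Inside the sets of related lines, the nearest thing to replicates here, the median SD was 0.77 and 0.44. DKK3, DKK4 and WIF1 were above the array median in only 3 lines, so a gene of this kind had to differ between lines to be detected, and the count is a description without a test.

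**Figure D1:**
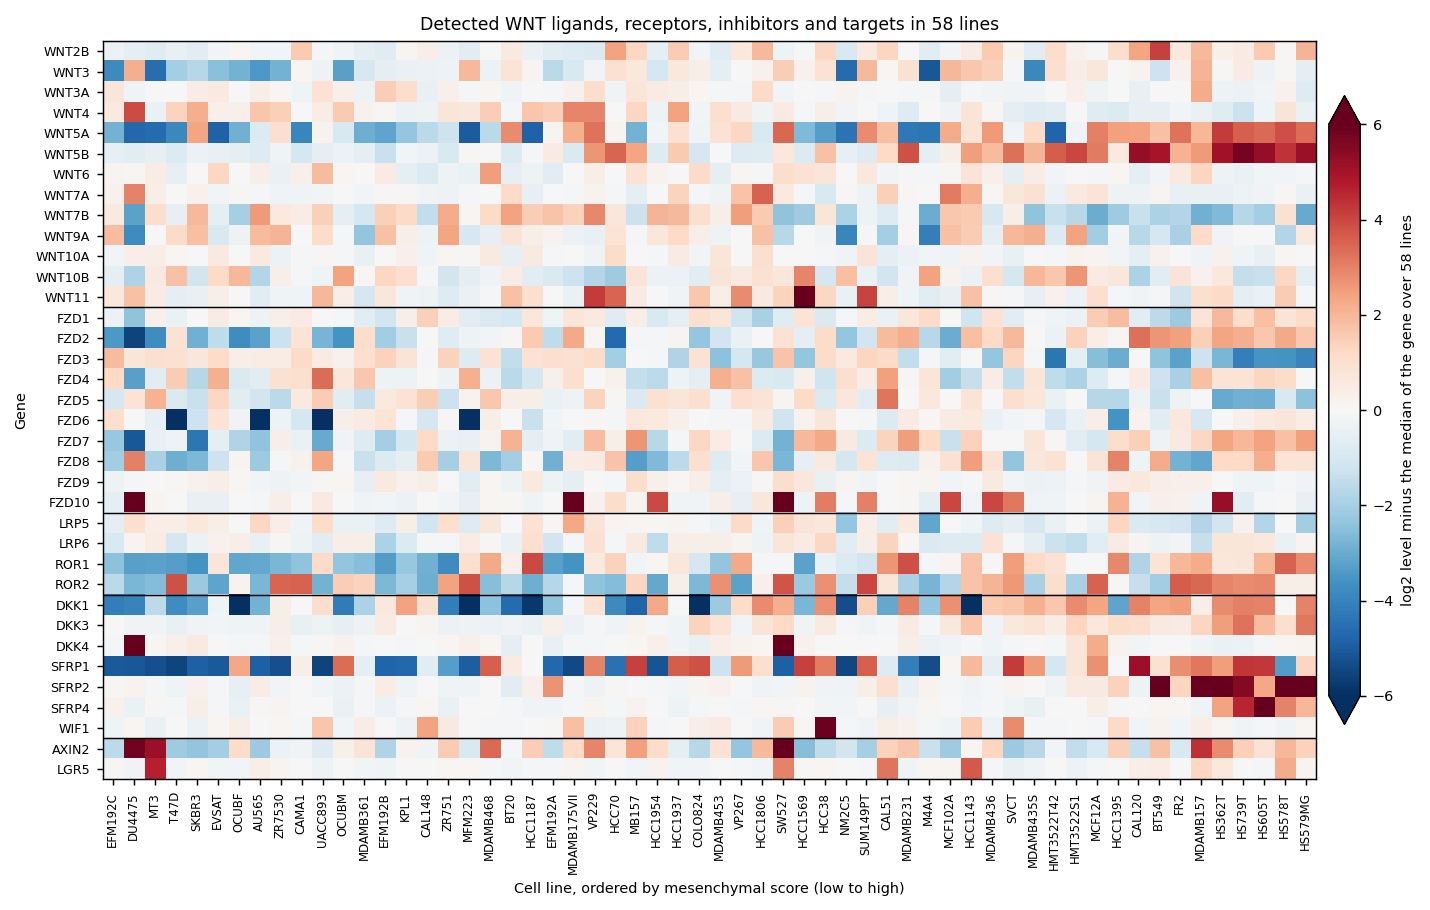
Log2 level of the 36 detected genes (rows, grouped by role) in 58 lines (columns, ordered by a mesenchymal score from low to high), as the difference from each gene's median over the lines; the colour scale ends at 6 log2 units on either side. WNT5B, SFRP2 and SFRP4 are high at the right end, among the 4 Hs lines and HS578T, and DKK4, FZD10 and AXIN2 are high together in SW527 and DU4475.

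Among the ligands, WNT5A and WNT5B spanned the largest ranges, together with WNT11 and WNT3. WNT5A, the best known ligand of the branch without beta-catenin, ran from 3.22 in MFM223 over a median of 8.20 to 12.39 in HS362T, followed by HS578T at 12.09, HS739T at 11.80 and SW527 at 11.63. It was at or below the array median in 17 lines, among them HCC1187 at 3.33 and MDAMB231 at 3.91. Its SD across units was 2.81 and inside related sets 2.66, so its spread between lines was close to that between lines of common origin. WNT5B, its close relative, ran from 4.18 in EFM192B over 5.50 to 11.24 in HS739T, with CAL120 at 10.80 and HS605T at 10.76 next. It was above the array median in 29 lines, and its highest lines form a tail far above the median line. WNT11, which also acts mainly without beta-catenin, was highest in HCC1569 at 11.23, 2.17 above the next unit, with VP229 at 9.19 and SUM149PT at 9.05, and had a median of 5.02.

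WNT3, a canonical ligand, was above the array median in 49 lines and ran from 3.03 in M4A4 over a median of 8.12 to 10.32 in DU4475, 10.16 in MDAMB157 and 10.11 in MCF102A. The 9 lines without it included all 3 lines of the MDAMB435 set (NM2C5 at 3.50, MDAMB435S at 4.26) and MT3 at 3.57. WNT7B, made by luminal cells of the mammary duct, ran from 2.93 in DU4475 over 6.12 to 9.01 in VP229, with AU565 at 8.70 and VP267 at 8.63. DU4475, lowest of all lines in WNT7B, was the highest in WNT4 as in WNT3. WNT4, which acts downstream of progesterone in ductal side branching, reached 8.35 there and 7.40 in VP229 and in MDAMB175VII, from a median of 4.45 and a lowest value of 3.17 in HS739T. WNT7A was above the array median in 12 lines and highest in HCC1806 at 8.43, MCF102A at 8.04 and DU4475 at 7.88 against a median of 4.91.

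WNT10B, a ligand of early mammary development, ran from 3.75 in HCC70 over 5.88 to 8.81 in HCC1569 and 8.55 in HMT3522S1. WNT9A was above the array median in 55 lines, with a median of 8.03 and a peak of 10.43 in HMT3522S1, and was lowest in M4A4 at 3.93, NM2C5 at 4.11 and DU4475 at 4.26. Its spread inside related sets, 2.04, exceeded its SD across units, 1.30. WNT2B peaked in BT549 at 8.52, 1.70 above the next unit, against a median of 4.41 and a lowest value of 3.49 in NM2C5. The other detected ligands had an SD under 1: WNT6 peaked in MDAMB468 at 8.04, WNT3A in MDAMB157 at 7.61 and WNT10A in HCC70 at 5.90. The probe sets of a gene did not always give the same picture. For WNT9A, WNT10A, WNT10B and WNT6 the other probe set followed the chosen one weakly (Pearson r = 0.06, 0.40, 0.28 and 0.42 over 58 lines), and for WNT10A it peaked in SUM149PT at 8.35. The values of these ligands therefore rest on 1 probe set each. The same holds for the inhibitor DKK3, whose other 2 probe sets had r = -0.17 and 0.57 with the chosen one and were above the array median in no line, and for WNT8B (0.34). For WNT3 the second probe set (r = 0.69) was above the array median in 1 line, against 49 for the chosen one. Of all 33 additional probe sets of 27 genes, 22 followed the chosen one with r of at least 0.8.

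The Frizzled receptors, which carry the WNT-binding domain, ranged from presence in all 58 lines to presence in 11. FZD2, FZD4, FZD5, FZD6 and FZD7 were above the array median in 52 to 57 lines, FZD3 in 44, FZD8 in 42 and FZD9 in 17. FZD1 was above the array median in all 58 lines, from 7.01 in DU4475 over 9.42 to 11.36 in HS362T. FZD6, known for its part in planar cell polarity, was near its median of 11.32 in most lines, yet 4 lines stood at background: MFM223 at 2.78, AU565 at 3.10, UACC893 at 3.26 and T47D at 3.62. Its highest value was 12.28 in EFM192C. FZD4, also the receptor of the ligand norrin, was below the array median only in DU4475, at 5.29, had a median of 8.56 and was highest in UACC893 at 11.89 and CAL51 at 11.03. FZD5 was below it in HS362T at 5.33, HS605T at 5.39 and HS739T at 5.44, had a median of 8.34 and peaked in CAL51 at 11.54, 1.12 above the next unit. The lines without FZD6 and those without FZD5 had none in common, which is likely for unrelated genes too with so few of 58 lines.

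FZD2 and FZD7 belong to the same subfamily as FZD1. FZD2 ran from 3.32 in DU4475 and 4.24 in HCC70 over a median of 8.90 to 12.18 in CAL120, with BT549 at 11.52 and FR2 at 11.37. FZD7, often described in stem cells, ran from 3.0 in DU4475 and 3.75 in SKBR3 over 8.09 to 10.74 in MB157 and 10.59 in MDAMB231. DU4475 was thus the lowest line for FZD1, FZD2, FZD4 and FZD7. It was the highest for FZD8, at 10.05, a relative of FZD5 that was lowest in MB157 at 3.71 and had a median of 7.04. FZD3, known from axon guidance, was at or below the array median in 14 lines, among them all 4 Hs lines and HS578T (3.49 to 4.84), with the lowest value, 3.23, in HMT3522T42. Its median was 7.57 and its highest values 9.46 in EFM192C and 9.26 in SW527. FZD10 was the receptor present in the fewest lines, 11 of 58: it reached 12.24 in SW527, 11.14 in DU4475, 9.78 in MDAMB175VII and 8.93 in HS362T, against a median of 3.70 and a lowest value of 3.07 in HS739T. FZD9 varied least of these receptors, with an SD of 0.36 and a highest value of 6.29 in SW527.

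The co-receptors of the canonical branch were present almost everywhere. LRP6 was above the array median in all 58 lines, from 7.74 in EFM192B over 9.63 to 10.97 in CAL51. LRP5 was below it only in M4A4, at 5.15, had a median of 8.26 and peaked in MDAMB175VII at 10.60. The ROR kinases, receptors for WNT5A, were present in part of the lines. ROR1 was above the array median in 38 lines, from 3.14 in ZR751 over 6.93 to 10.91 in HCC1187, 10.81 in MDAMB231 and 10.47 in HS578T. ROR2 was above it in 30 lines, from 2.69 in VP267 over 5.88 to 9.89 in SUM149PT, 9.72 in MFM223 and 9.70 in T47D. The 5 lines with the most ROR1 and the 5 with the most ROR2 had no line in common, which is likely for unrelated genes too with so few of 58 lines.

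The widest ranges of all were those of secreted inhibitors. SFRP1, which binds WNT proteins and is reported as silenced in many breast tumours, had an SD of 3.58 and ran from 2.92 in UACC893 over 8.46 to 13.61 in CAL120, 12.76 in HS739T and 12.72 in HS605T, and it was above the array median in 36 lines. DKK1, which blocks LRP5 and LRP6 and whose upstream window is printed above, had an SD of 3.19. It was below the array median in 8 lines, led by MFM223 at 2.59, COLO824 at 2.81, HCC1143 at 2.96 and OCUBF at 3.54, while its median was 10.03 and its 5 highest lines lay between 12.98 (CAL120) and 13.04 (HS739T). Its highest lines lay close together, unlike those of SFRP1.

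SFRP2 was above the array median in 10 lines, with 13.06 in HS362T, 11.21 in HS579MG, 11.02 in HS578T, 10.78 in BT549 and 10.38 in MDAMB157, against a median of 4.19 and a lowest value of 3.58 in BT20. SFRP4 was above it in 5 lines, namely HS605T at 12.16, HS739T at 8.88, HS578T at 7.25, HS362T at 6.72 and HS579MG at 6.27, against a median of 4.29 and a lowest value of 3.82 in CAL51. These are the 5 lines in which all 10 stromal markers were above the array median. DKK3, a divergent family member that does not act on LRP5 and LRP6 like the others, led in 4 of the same lines, with HS739T at 6.65, HS579MG at 6.56, HS362T at 5.90 and HS605T at 5.26, and ran from 2.93 in OCUBM over 3.40. WIF1 was highest in HCC38 at 8.96, 3.02 above the next unit, with a median of 3.09 and a lowest value of 2.69 in VP229. DKK4 was at background in all lines but 3: DU4475 at 13.44, SW527 at 12.10 and MCF12A at 6.10, with HMT3522S1 next at 4.59, a median of 3.86 and a lowest value of 3.34 in BT20.

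AXIN2, a scaffold of the destruction complex and a widely used readout of beta-catenin activity, ran from 3.07 in HCC1569 over a median of 5.63 to 12.03 in SW527, 11.43 in DU4475, 10.76 in MT3, 10.01 in MDAMB157 and 9.02 in MDAMB468. It was above the array median in 30 lines. A second AXIN2 probe set (Pearson r = 0.70 with the chosen one over 58 lines) was above the array median in 1 line, DU4475, at 5.68. LGR5, a receptor for R-spondins and a marker of intestinal stem cells, was above it in 4 lines, MT3 at 7.42, HCC1143 at 6.47, CAL51 at 5.99 and SW527 at 5.73, against a median of 2.77 and a lowest value of 2.35 in SVCT. SW527 and MT3 were high in both targets, while DU4475, with 2.58, had LGR5 below the array median.

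How the genes followed the epithelial and mesenchymal character of the lines was asked with scores, each the mean distance of a marker list from its medians in log2 units, and with limma's test of the slope over 50 units, adjusted by Benjamini-Hochberg over all detected genes. The clearest relations were with the mesenchymal score (VIM, ZEB1, AXL and other genes of motile, matrix-producing cells). WNT5A, WNT5B, their co-receptor ROR1, the receptors FZD2 and FZD7 and the inhibitors SFRP1 and DKK1 rose with it, as did WNT2B and WNT3. FZD3, FZD5, LRP5, WNT4 and WNT7B fell. Among all 44 genes, with no filter on low values, 20 passed, 15 with a positive and 5 with a negative slope, against 28.4% of all genes (11.6% positive and 16.8% negative). With the filter 17 of 36 passed, 12 positive and 5 negative, against 37.2% (15.6% positive and 21.6% negative). The inhibitors DKK3, SFRP4 and SFRP2 are among the 12 but are given as a description. DKK3 was detected in 3 units and SFRP4 in 5, all of them among the 5 units with the highest mesenchymal scores, and 8 of the 9 units with SFRP2 were among the 9 highest. These genes thus entered the test through lines at its upper end. Under a stricter filter of 10 units, which leaves those 3 out, 14 of 29 genes passed, 9 positive and 5 negative, against 37.9% of all such genes.

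The WNT5B slope was 0.63 log2 units per unit of the score (SE 0.07, adjusted p = 1.37e-10), and that of WNT5A 0.66 (SE 0.11, adjusted p = 5.89e-06). SFRP1 had the largest slope, 0.69 (SE 0.16, adjusted p = 0.000453), and DKK1 followed with 0.58 (SE 0.14, adjusted p = 0.00108). Among the receptors ROR1 had a slope of 0.50 (SE 0.09, adjusted p = 2.74e-05), FZD2 one of 0.49 (SE 0.08) and FZD7 one of 0.34 (SE 0.07). FZD3 had the steepest fall, with a slope of -0.43 (SE 0.07, adjusted p = 9.71e-07), and the receptor FZD5 and the co-receptor LRP5 fell with it. The slope of FZD5 was -0.19 (SE 0.06), of WNT7B -0.27 (SE 0.08), of WNT4 -0.20 (SE 0.05) and of LRP5 -0.14 (SE 0.04). ROR2 did not pass (slope 0.26, SE 0.12, adjusted p = 0.0898), nor did FZD6 (slope 0.25, SE 0.11, adjusted p = 0.0581). Where a gene's probe sets were averaged, and the score then met the rule for a cluster term described below, ROR1 (adjusted p = 0.0538), SFRP1 (0.0794), WNT2B (0.100) and WNT3 (0.801) lost their calls. With averaged probe sets and no cluster term, a setting added after the data were seen, all 4 passed, with adjusted p of 1.65e-05, 0.000643, 0.00220 and 0.0224. DKK3 was not detected by the mean of its probe sets.

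The stromal markers move with the same score and are highest in the 4 Hs lines and HS578T (8.24 to 8.41 log2 units above their medians). Without the 4 Hs lines 12 genes passed, 10 of them with a positive slope. The share of all genes called without these lines was not computed, so this count has no background beside it. WNT5A (0.60), WNT5B (0.53), ROR1 (0.52), FZD2 (0.49), SFRP1 (0.65) and DKK1 (0.51) still rose, and SFRP2 had a slope of 0.27. FZD5 (adjusted p = 0.459), LRP5 (0.0900) and WNT7B (0.102) no longer passed, and DKK3 and SFRP4 dropped below the detection filter. The score came close to the rule for treating its units as separate clusters (a gap of 9.66 against a limit of 10 units of the Bayesian information criterion). With its 2 components as a term, a setting added after the data were seen, 8 genes passed: FZD3, FZD7, ROR1, WNT5A and WNT5B, and DKK3, SFRP2 and SFRP4 with the limit just given, against 7.96% of all genes, and the slope of WNT7B turned to 0.093 (adjusted p = 0.794).

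**Figure D2:**
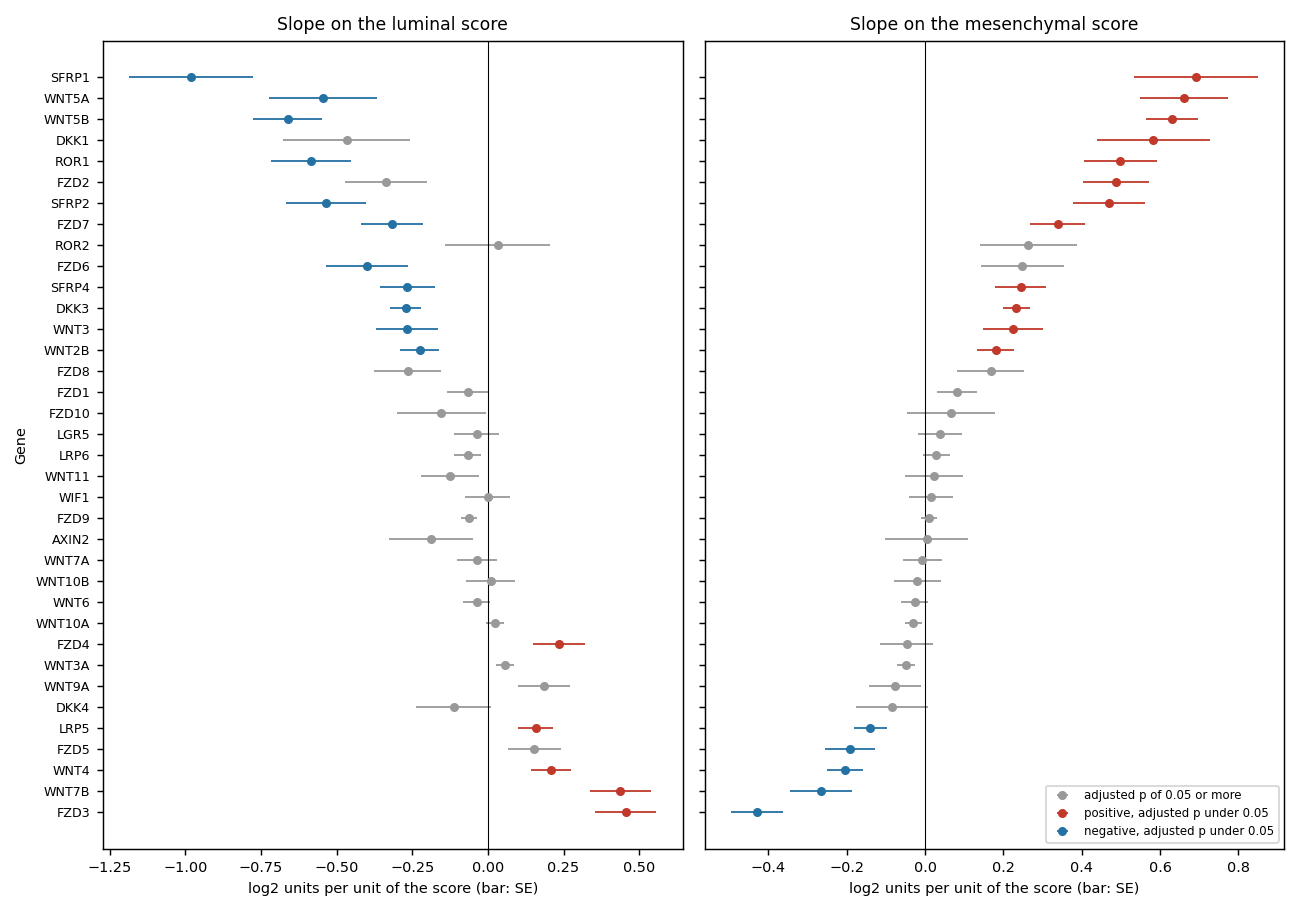
Slope of each of the 36 detected genes (vertical axis, ordered by the slope on the mesenchymal score) on the luminal score (left) and on the mesenchymal score (right), in log2 units per unit of the score over 50 units; bars are standard errors, and coloured points have an adjusted p under 0.05 in limma. SFRP1, WNT5A and WNT5B are at the positive end for the mesenchymal score and at the negative end for the luminal score, and FZD3 and WNT7B are the reverse.

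The luminal score (GATA3, FOXA1, KRT8 and other genes of milk-duct lining cells) opposed the mesenchymal score across the units (Pearson r = -0.78, n = 50, given as a description), and the genes largely mirrored it. FZD3 (slope 0.46, SE 0.10, adjusted p = 0.000396), WNT7B (0.44, SE 0.10, adjusted p = 0.000558), FZD4, WNT4 and LRP5 rose with the luminal score. SFRP1 (slope -0.98, SE 0.20, adjusted p = 0.000195), WNT5B (-0.66, SE 0.11), ROR1 (-0.58, SE 0.13), WNT5A, SFRP2, SFRP4, FZD6, FZD7, DKK3, WNT3 and WNT2B fell. These are 16 of 36 genes, 5 positive and 11 negative, against 32.3% of all genes (18.5% positive and 13.8% negative). The units with DKK3 or SFRP4 were among the 13 lowest of the 50 in the luminal score and those with SFRP2 among the 15 lowest, so their calls are again a description. Under the filter of 10 units 13 of 29 passed, 5 positive and 8 negative, against 33.2%. FZD4 and FZD6 passed in this fit but not in the mesenchymal one, where FZD4 had a slope of -0.05 (SE 0.07, adjusted p = 0.621 in limma). On the luminal score FZD4 had a slope of 0.24 (SE 0.09) and FZD6 one of -0.40 (SE 0.14). Of the 4 lines with FZD6 at background, leaving out MFM223 or T47D ended the FZD6 call (highest adjusted p = 0.0868), and leaving out MFM223 or UACC893 ended that of FZD4 (0.0598).

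WNT3 lost its luminal call without any 1 of 8 units, ZR7530 and T47D among them (highest adjusted p = 0.0771), and LRP5 without any 1 of 5, MDAMB175VII among them (0.101). Without the 4 Hs lines 11 genes passed, and WNT5A, FZD7, WNT4 and LRP5 did not. The share of all genes called was again not computed for this setting. With 2 components of the score as a term, added after the data were seen, WNT7B passed, and so did DKK3, detected only in HS739T, HS579MG and HS362T at the low end of the score, against 2.04% of all genes, and the WNT3 slope turned to 0.28 (adjusted p = 0.472).

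No gene of the 44 passed in limma against the basal score, built from keratins and other genes of the outer duct layer, of which the arrays named only 5 of 12. The fit had a term for its 2 clusters of units, and 0.0273% of all genes passed (0.0137% positive and 0.0137% negative). At an unadjusted p under 0.05 there were 6 of 36 genes, WNT3 (slope 0.57, SE 0.15, adjusted p = 0.169) and WNT11 (0.50, SE 0.15, adjusted p = 0.193) first. Without the cluster term 3 passed, WNT3 (0.33, SE 0.08, adjusted p = 0.00814) and WNT7A (0.16, SE 0.05, adjusted p = 0.0427) with a positive and FZD4 (-0.28, SE 0.07, adjusted p = 0.00827) with a negative slope, against 5.05% of all genes.

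Beyond the 44 genes, the pathway was followed with lists of its other parts, 61 of 63 named genes, of which 60 were detected. On the mesenchymal score 9 rose and 15 fell (24 of 60, or 40%, against 37.2% of all genes), and on the luminal score 11 rose and 11 fell (22 of 60, or 36.7%, against 32.3%), shares close to the background. CD44, a cell surface receptor and beta-catenin target, had the strongest positive relation with the mesenchymal score (slope 0.77, SE 0.10, adjusted p = 4.64e-08), followed by the R-spondin RSPO3 (0.46, SE 0.09) and the nuclear co-factor PYGO1 (0.40, SE 0.08). PYGO2, the relative of PYGO1, fell (-0.14, SE 0.02, adjusted p = 3.73e-08), as did the transcription factor ASCL2 (-0.51, SE 0.07) and RNF43 (-0.62, SE 0.09), a ligase that removes Frizzled receptors from the membrane. On the luminal score CELSR2 (0.47, SE 0.09) and DAAM1 (0.26, SE 0.05), both of the planar polarity branch, and ASCL2 (0.55, SE 0.11) had the strongest positive relations, and CD44 (-0.85, SE 0.16), RSPO3 (-0.53, SE 0.13) and PYGO1 (-0.48, SE 0.11) the strongest negative ones. WLS, the carrier that brings WNT proteins to the cell surface, rose with the mesenchymal score (0.36, SE 0.09) and was above the array median in 56 lines.

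By list, the cytoplasmic parts gave 3 positive and 3 negative calls of 14 on the mesenchymal score, the nuclear parts 1 and 2 of 7, the beta-catenin targets 2 and 5 of 14, and the other co-receptors and polarity genes 1 and 4 of 10. R-spondins, their receptors and ligases gave 1 and 2 of 7, and other secreted or surface modulators 0 and 1 of 12. The same lists gave 2 and 3, 2 and 2, 3 and 2, 3 and 2, 1 and 1, and 1 and 0 on the luminal score, in that order. Over all genes 15.6% gave a positive and 21.6% a negative call on the mesenchymal score, and 18.5% and 13.8% on the luminal one, and the lists, of 7 to 14 genes, were not tested against these shares. The median slope of the beta-catenin targets on the mesenchymal score was -0.09, against -0.01 over all genes.

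SW527 and DU4475 formed a pair at the top of AXIN2 that shared many other genes of its feedback loop. DKK4 was at 12.10 and 13.44 there. NKD1, which restrains Dishevelled, was at 12.21 in SW527 and 12.22 in DU4475 against 9.12 in the next line and a median of 5.22. NOTUM, an enzyme that inactivates WNT proteins, was at 11.10 and 12.02 against 7.06, and SP5, the transcription factor whose window is printed above, at 11.99 and 11.92 against 7.33. LEF1 was at 12.07 and 11.99 with NM2C5 close behind at 11.75, so it was not high in this pair alone. The pair differed in some other pathway genes. CD44 was at 11.47 in SW527 and at 2.67 in DU4475, the lowest of all lines. MYC was at 12.82 in SW527 and 10.42 in DU4475 (median 11.29), and CCND1 at 13.16 and 11.4 (median 12.45). The ligases RNF43 and ZNRF3, which remove Frizzled receptors, were highest in SW527, DU4475 and MT3, with RNF43 at 11.50, 11.66 and 11.45 and ZNRF3 at 11.33, 11.08 and 10.72. FZD10 shared the lead of SW527 and DU4475, while MT3 had 3.85 of FZD10, 3.98 of DKK4 and 5.87 of NOTUM.

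The 3 lines with the most AXIN2 thus differed in what came with it. MT3 had the most LGR5 and ASCL2 (12.00) of all lines and 8.60 of NKD1, but DKK4, NOTUM and FZD10 were not raised, and SP5 was at 4.93. They differed in ligands too: DU4475 was highest in WNT3 at 10.32 and WNT4 at 8.35 and low in WNT5A at 3.50, SW527 had 9.61 of WNT3 and 11.63 of WNT5A, and MT3 had 3.57 of both. DKK1 was at 12.18 in SW527, 8.44 in MT3 and 6.0 in DU4475, and SFRP1 was near background in all 3 (3.19 to 3.54). MDAMB157 and MDAMB468, next in AXIN2, had SFRP1 at 11.62 and 12.06 and DKK4 at 3.67 and 3.98. Of the 8 intestinal markers 7 were above the array median in MT3, 4 in SW527 and 2 in DU4475, with CDX2 at 11.03, 7.84 and 7.76 against a median of 4.46, and their part in these levels was not tested.

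**Figure D3:**
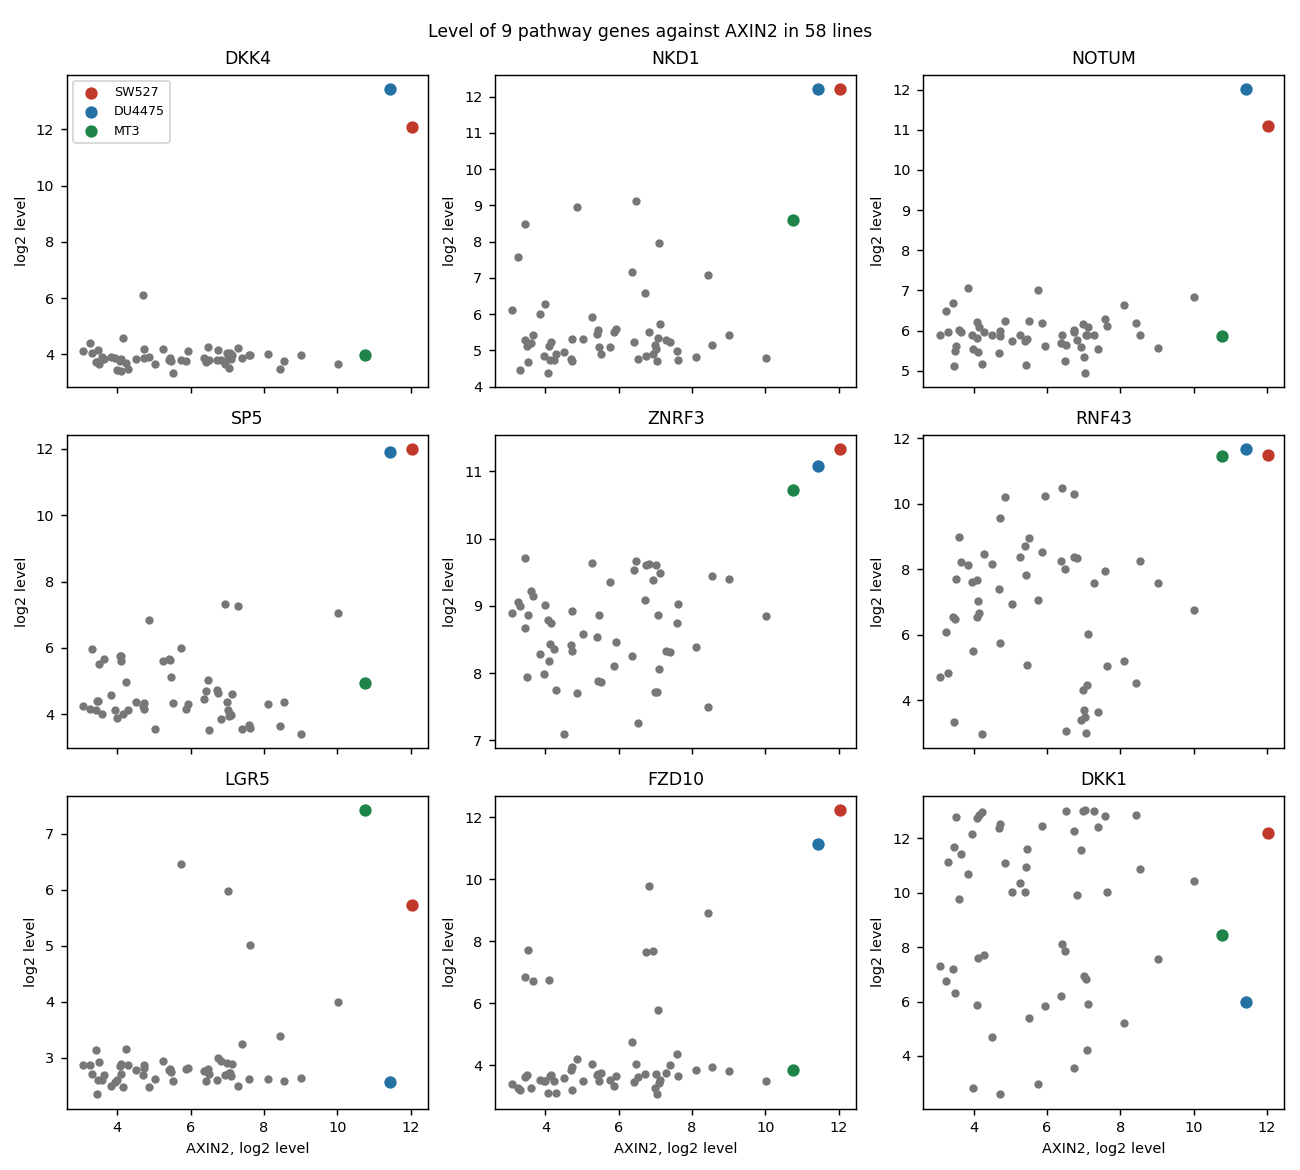
Log2 level of 9 pathway genes (vertical axes) against that of AXIN2 (horizontal axis) in 58 lines, 1 point per line; SW527, DU4475 and MT3 are coloured. DKK4, NOTUM, SP5 and NKD1 are far above the other lines in SW527 and DU4475 and not in MT3, whereas LGR5 is highest in MT3 and DKK1 shows no order with AXIN2.

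Across all units 1 of 35 genes rose with the level of AXIN2, DKK4 (slope 0.47 log2 units per log2 unit of AXIN2, SE 0.10, adjusted p = 0.0228 in limma), against 0.375% of all genes (0.287% positive and 0.0887% negative). DKK4 was detected through 3 units, of which SW527 and DU4475 are the first and second in AXIN2, so its call is a description. Under the filter of 10 units 0 of 28 genes passed in limma (2 at an unadjusted p under 0.05), against 0.144% of all such genes. FZD10 (0.43, SE 0.14, adjusted p = 0.170) and LGR5 (0.23, SE 0.07, adjusted p = 0.131) did not pass. Of the other pathway genes NKD2 (0.42, SE 0.08, adjusted p = 0.00970), NOTUM (0.33, SE 0.07, adjusted p = 0.0197), CTNNB1 (0.07, SE 0.02, adjusted p = 0.0224) and NKD1 (0.43, SE 0.10, adjusted p = 0.0352) rose and none fell. ZNRF3 (0.19, adjusted p = 0.0941), SP5 (0.36, adjusted p = 0.131), RNF43 (0.25, adjusted p = 0.657) and LEF1 (0.17, adjusted p = 0.830) missed the threshold. Without DU4475, MCF12A or SW527, DKK4 fell below the detection filter and no gene passed. Without SW527, DU4475 and MT3, a setting added after the data were seen, the slope of DKK4 was -0.018 (adjusted p = 0.893), that of NKD1 -0.00073 (adjusted p = 0.999), that of NKD2 0.19 (adjusted p = 0.454) and that of CTNNB1 0.06 (adjusted p = 0.327). None of the 5 genes that had passed did so without those 3 lines.

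Over all genes, the 10 that rose with AXIN2 at the smallest adjusted p in limma included NKD2 of the pathway lists. First were EEPD1 (slope 0.34, SE 0.05, adjusted p = 0.000101) and the drug efflux pump ABCB1 (0.57, SE 0.09, adjusted p = 0.000602). Among the others were the ectodysplasin receptor EDAR (0.46), the long non-coding RNA LINC00261 (0.32) and the B-cell coactivator POU2AF1 (0.67). The rest were TLDC2 (0.36), the TNF receptor TNFRSF1B (0.40), the homeobox factor PROX1 (0.48) and EPS8L3 (0.47). ABCB1 was at 12.49 in DU4475, 11.03 in MT3 and 10.92 in SW527, against a median of 4.65. Each of these 10 genes had its highest value in SW527, DU4475 or MT3. Without those 3 lines, the setting added after the data were seen, 2 of 14650 genes rose at an adjusted p under 0.05. With them 42 did, so these calls rest largely on the 3 lines.

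Lines of common origin often differed in these genes. Of the 36 genes 19 differed by at least 2 log2 units (4-fold) inside at least 1 of the 6 sets, against 28.3% of all detected genes. With 1 array per line this is a description. WNT5A passed that size in all 6 sets. AU565 and SKBR3, derived from the same patient, differed by it in 2 of 36 genes (2.82% of all genes), FZD6 at 3.10 in AU565 and 10.06 in SKBR3, and WNT5A at 7.39 and 10.57. FZD6 was thus missing from 1 of a pair of lines that otherwise resembled each other (profile correlation 0.80).

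In the MDAMB435 set 7 genes passed (6.76% of all genes), all 7 highest in MDAMB435S: SFRP1 at 11.03 against 3.0 in NM2C5, DKK1 at 12.15 against 4.69, WNT9A at 10.19 against 3.93 in M4A4, and WNT5A at 9.38 against 3.78 in NM2C5, with WNT5B, FZD2 and LRP5 at smaller distances (2.14 to 2.57). Its derivatives M4A4 and NM2C5 had the fewest of the 44 genes above the array median, 14 each, together with EFM192C. In the pair VP229 and VP267 6 genes passed (8.68%), AXIN2 most of all, at 8.55 in VP229 and 3.31 in VP267, then WNT5B at 8.15 and 4.74. WNT4, FZD3 and WNT5A were also higher in VP229, and WNT10B was higher in VP267 (6.40 against 4.14).

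MB157 and MDAMB157 differed in 6 genes (10.4%), all higher in MDAMB157. These were SFRP2 at 10.38 against 4.15, DKK1 at 10.45 against 5.20, WNT5A at 10.19 against 5.37, and FZD4, ROR1 and ROR2. MB157 had 9 of 9 epithelial markers above the array median and a mesenchymal score of -1.0, MDAMB157 3 of 9 and a score of 3.12. The part of this in the 6 differences was not tested, and the fits averaged the 2 lines. In the EFM192 lines 7 genes passed (12.5%), among them DKK1, at 10.68 in EFM192B, 7.60 in EFM192A and 5.86 in EFM192C, WNT5A, at 8.34 in EFM192A and 5.03 in EFM192B, and WNT3, at 7.52 in EFM192B and 4.29 in EFM192C. HMT3522S1 and HMT3522T42, a non-malignant line and its tumour-forming derivative, differed in 4 genes (3.97%): WNT5A at 8.0 and 3.39, FZD3 at 6.99 and 3.23 and WNT9A at 10.43 and 7.20 were lower in the derivative, and ROR2, at 3.92 and 6.94, was higher.

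**Figure D4:**
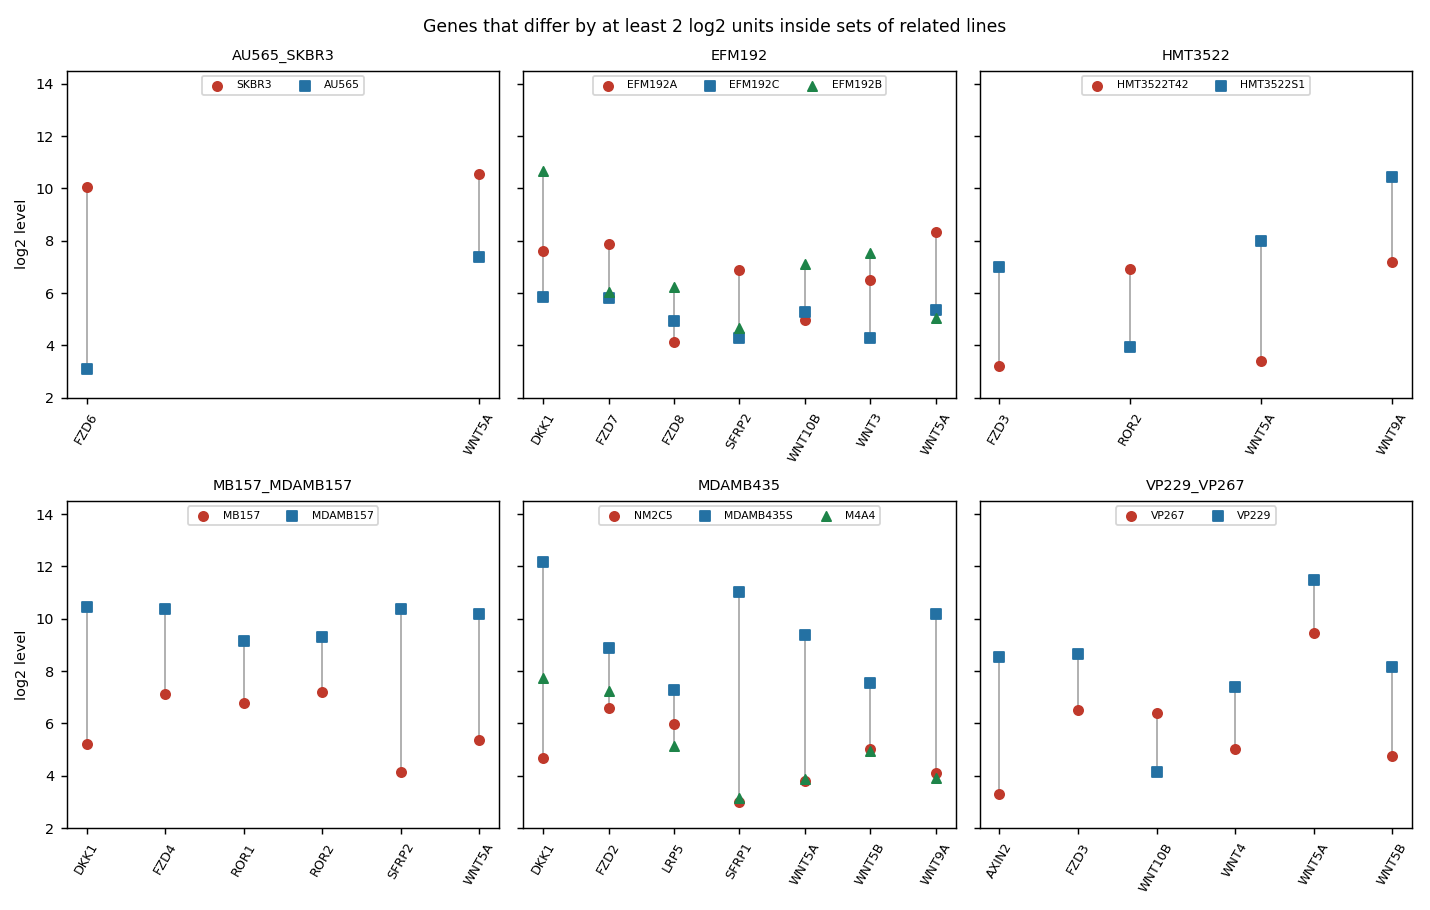
Log2 level of every detected gene of the family that differs by at least 2 log2 units inside a set of related lines, 1 panel per set and 1 symbol per line. WNT5A appears in all 6 panels, and the largest distance is that of SFRP1 in the MDAMB435 set, 11.03 against 3.0.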

How the data were processed

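Messenger RNA of 58 untreated cell lines was measured on 1 array per line. The authors deposited a table on a log2 scale, made by RMA with Affymetrix Power Tools, per the submitters' processing notes; versions, annotation build and whether all arrays were normalized together are not given in the sources used here. They ran from 1.53 to 14.77 over 52377 probe sets, of which 35184 named 1 gene and 374 several. Each gene took its probe set with the highest mean, so levels are compared across lines, never between genes. RMA makes the arrays' distributions alike, which hides shifts of all genes together.

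Related lines were averaged (50 units), from general knowledge. Genes were kept (14651) if 3 or more units exceeded the array median. A score was the mean distance of the detected genes of a marker list from their medians over units. Slopes on 3 scores and on AXIN2 were fitted with limma 3.58.1 (R 4.3.3, eBayes with trend and robust), with Benjamini-Hochberg adjustment over all detected genes, and called under 0.05. Genes of a score's own list were left out of its counts. A term for 2 clusters of units was added where mclust 6.1.1 preferred 2 components by over 10 units of the Bayesian information criterion if Ashman's D exceeded 2 and each component held 3 or more units, which held for the basal score. Named are all 44 genes, and of the other pathway lists the 3 with the smallest adjusted p in each direction of a fit. Also named are the 10 leading positive genes for AXIN2, and NKD1, NOTUM, SP5, RNF43, ZNRF3 and LEF1. A few others were chosen after their values were seen (WLS, CTNNB1, MYC, CCND1, marker genes). TCF7 and PORCN were not analysed here. The members and lists were chosen with earlier results of these data known. Tested on simulated data, the fits recovered 90, 74, 93 and 86 of 100 planted slopes of 0.5 and 75, 47, 84 and 72 of 100 at 0.25 (luminal, basal, mesenchymal, AXIN2), with 8, 10, 10 and 18 unchanged genes called. The simulated noise was normal and independent between genes, so genes that move together or are high in few lines were not covered. Alternatives were other probe sets, a second normalization, filters, thresholds, terms and left-out lines.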

Additional observations from a re-analysis of the deposited data

How the results depend on the processing

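The counts of detected genes (36) and of genes with an SD of at least 1 (28) stayed within 1.5 times under a second quantile normalization, the mean of probe sets (34 and 22), all 58 lines as units and left-out lines, as did the luminal count of 16 under these settings. An SD limit of 1.5 left 17 genes, and a limit of 1 log2 unit inside sets gave 30 in place of 19. On the luminal score 8 passed at an adjusted p under 0.01 and 2 with 2 components of the score as a term, where the slope of WNT3 was 0.28 (adjusted p = 0.472). On the mesenchymal score, 17 in the report, 11 passed with 58 lines as units and 6 without the 3 widest arrays, both with a cluster term that the rule then added, and 8 with 2 components as a term. WNT7B had a slope of 0.093 in the second of these (adjusted p = 0.819) and in the third (0.794). On the basal score, 0 in the report, 3 passed without the MDAMB435 set and MT3, without the 4 Hs lines or without the cluster term, and 2 without the 2 farthest units or with HS605T and HS739T, and OCUBF and OCUBM, averaged. On AXIN2, 1 in the report, 0 passed with a filter of 10 units, at an adjusted p under 0.01, with the luminal and mesenchymal scores as terms, without DU4475 and MT3, without SW527, DU4475 and MT3 (DKK4 slope -0.018, adjusted p = 0.893), or without the 2 farthest units, SW527 and DU4475 (DKK4 slope -0.013, adjusted p = 0.960). Leaving out 1 unit at a time gave 14 to 18 genes for the luminal, 0 to 3 for the basal, 8 to 19 for the mesenchymal and 0 to 1 for the AXIN2 fit, and with the terms kept as in the report 16 to 19 for the mesenchymal one. Averaged probe sets gave 12 for the mesenchymal score with the cluster term that the rule then added and 16 without it, a setting added after the data were seen. With averaged probe sets the mesenchymal count was higher without the cluster term, and so was the lowest count with 1 unit left out. For 58 lines as units and without the 3 widest arrays, a fit without that term was not run. These settings were chosen after the data were seen: leaving out single units, averaging the like pairs, 2 components as a term, and leaving out SW527, DU4475 and MT3. For the 3 scores, the share of all genes called was not computed with 58 lines as units, left-out lines, averaged like pairs or an adjusted p under 0.01. Those counts therefore have no background beside them.

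No paired analysis was possible because each line was measured 1 time and the labels give no replicate numbers. Signal near the array median limits what can be said of low genes: the 550 viral probe sets, which no line should express, had a 95th percentile of 5.63, above the array medians, and 34 of the 44 genes were detected by that limit.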
